A study of Mus musculus with 7 samples.

Results

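The SOCS family of cytokine signal suppressors was examined in splenic CD4+CD25+ cells of aged and young mice. The family was taken as Cish and Socs1 to Socs7, found by their symbols in the deposited gene table, and makes up 8 of its 25469 genes. The aged group was 3 libraries of WT mice 18 months old and the young group 4 libraries of WT mice 8 weeks old. The paper describes its mice as male C57BL/6 and gives the young mice a slightly older age than the sample labels do. No treatment is named for the donors of these libraries. The paper treats these cells as regulatory T cells (Tregs). It names an isolation kit for the Tregs it transferred between mice, and how the sequenced cells were isolated, and whether a library came from 1 mouse or from several, is not given in the sources used here. No reporter or transgene is named for these samples. The labels call the libraries biological replicates. Below, aged Tregs and young Tregs stand for libraries of all the cells isolated, which also held transcripts of other spleen cells.

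Cytokine receptors without kinase activity of their own signal through Jak kinases, which phosphorylate Stat transcription factors. Active Stats switch on SOCS genes, and the SOCS proteins then bind receptors or Jaks through an SH2 domain, block them, and recruit a ubiquitin ligase through the SOCS box at their C terminus. In Tregs, which depend on IL-2 and Stat5, Cish, Socs1, Socs2 and Socs3 are the members best known as feedback inhibitors of cytokine receptors, whereas Socs4 to Socs7 are better known from growth factor and insulin signalling.

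Of the 8 members, 1 rose and 1 fell with age. Socs3 was 2.30-fold higher in aged libraries, at a mean of 170.2 against 73.9 CPM (read counts scaled by library total and composition), and Socs7 fell to 0.737 of its young level. Neither Cish nor Socs1 nor Socs2, the other members known as cytokine feedback inhibitors, passed the test. The 2 called members are 25.0% of the family, beside 16.7% of the 13904 genes tested (edgeR's quasi-likelihood test, Benjamini-Hochberg adjusted p under 0.05 over all genes tested). In the rising direction 1 of the 8 was called, beside 9.80% of all genes, and in the falling direction 1 of the 8, beside 6.94%. Of the 8 members, 6 had a log2 fold change above 0, beside 52.0% of all genes. The median was 0.156 over the members and 0.0192 over all genes tested. The share of members called therefore lies near that of genes in general, and the results below concern single genes.

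All 8 members passed the filter on low counts, with between 164 and 2521 reads in every library. Library depth was 10734234 to 13649310 reads on genes, with all 4 young libraries above all 3 aged ones. Foxp3 was read at 447 to 621.8 CPM in aged and 393.8 to 518.3 CPM in young Tregs, and Cd4 at 434.1 to 446.3 and 493.4 to 633 CPM. Transcripts of other spleen cells were present in all libraries, with haemoglobin genes at 1.24% to 13.1% of the reads. The sum of 8 B cell markers was 946.5 to 1861 CPM in aged and 1417 to 2183 CPM in young libraries. For 4 T cell markers it was 1487 to 1639 and 1367 to 1746 CPM, and for 5 plasma cell markers 568.8 to 1146 and 228.3 to 1841 CPM. Mitochondrially encoded genes took 5.08% to 10.7% of the reads in aged and 2.63% to 3.23% in young libraries. In such bulk samples, fewer cells of a type and less RNA per cell cannot be told apart.

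**Figure D1:**
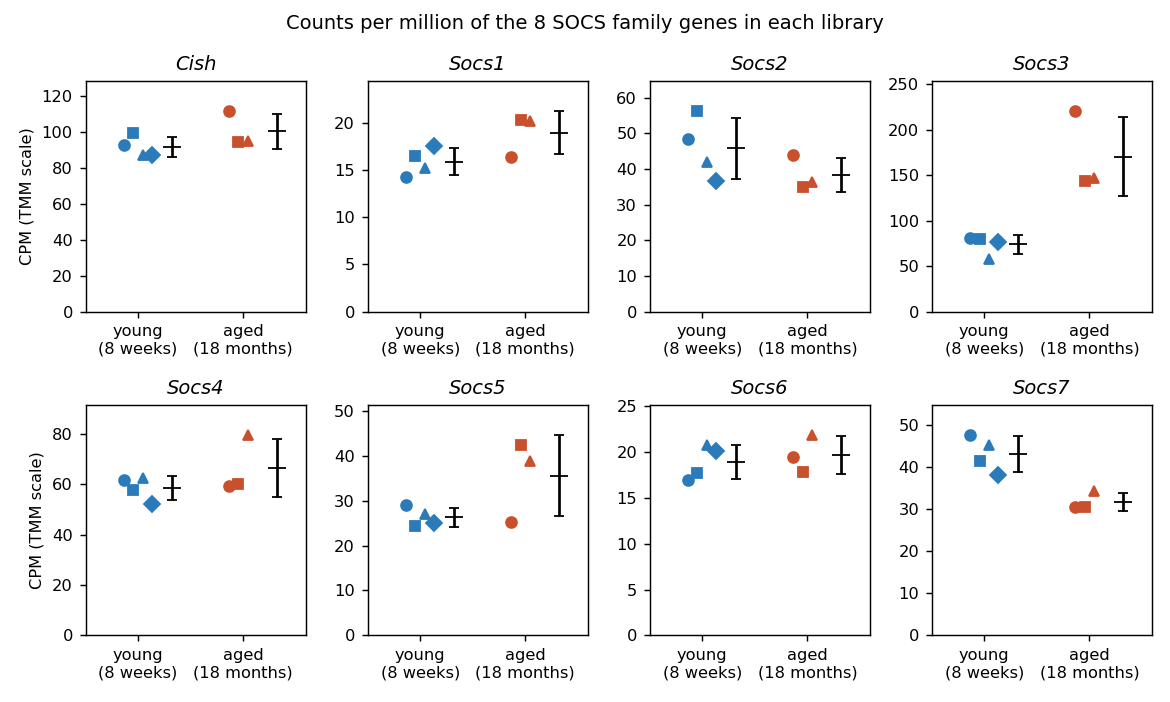
CPM on the TMM scale (linear axes from 0) of each SOCS family gene. Every point is 1 library (circle, square, triangle and diamond for replicates 1 to 4), and the bar beside the points is the mean with its SD. The aged points lie above all young points for Socs3 and below them for Socs7, and overlap with them for the other 6 genes.

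Socs3 encodes a suppressor that binds the shared receptor chain gp130 and Jaks, and is known for ending signals of IL-6 and G-CSF. The gene (ENSMUSG00000053113) lies on chromosome 11 of GRCm38 from 117966079 to 117970047, on the minus strand. Aged replicates 1, 2 and 3 held 220.3, 143.9 and 146.4 CPM, and young replicates 1 to 4 held 81.3, 79.6, 58.0 and 76.8 CPM. The lowest aged library thus held more than the highest young library, and aged replicate 1 stood above the other aged libraries. The log2 fold change was 1.20 with a standard error of 0.181 (edgeR, adjusted p = 0.00427), with a 95% confidence interval from 1.73-fold to 3.07-fold. An exact two-sided permutation test on log2 CPM gave p = 0.0571, the smallest it can give with 3 against 4 libraries. With aged replicate 1 left out, Socs3 still had a log2 fold change of 0.97 (adjusted p = 0.00498), and it was called in all 7 fits that left out a library.

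Beside Socs3, some neutrophil marker genes were also called higher with age. Of 10 neutrophil marker genes, 5 were called higher in aged libraries and none lower, beside 9.80% and 6.94% of all genes. Ly6g, Ngp, Camp, Ltf and Mmp8 did not pass the test. None of the 10 was at 0 in any library. Of the 5 called, Csf3r and Cxcr2 were called in all 7 fits that left out a library and S100a8 in 2 of them. The summed level of the 10 was 5366, 1936 and 735.7 CPM in aged replicates 1 to 3 and 270.6 to 954.9 CPM in the young libraries. Both measures were highest in aged replicate 1. Aged replicate 3 held less neutrophil signal than young replicate 3 (735.7 against 954.9 CPM) and more Socs3 (146.4 against 58.0 CPM), and young replicate 3 had the most neutrophil signal and the least Socs3 of the young libraries. Csf3r, the receptor of the neutrophil growth factor G-CSF, was at 68.1, 49.8 and 53.1 CPM in aged and 8.90 to 22.7 CPM in young libraries, a log2 fold change of 1.79 (adjusted p = 0.00449). The ages did not overlap in Csf3r or in Cxcr2 (11.6 to 23.4 and 2.24 to 6.12 CPM), whereas they did in the sum of the 10. The part of neutrophil transcripts in the Socs3 result was not tested.

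**Figure D2:**
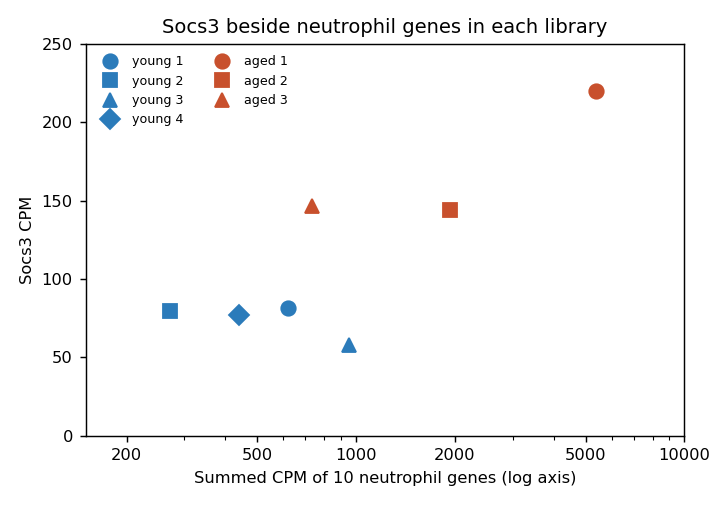
Socs3 CPM of each library (vertical axis) against the summed CPM of 10 neutrophil marker genes (horizontal log axis). Each point is 1 library, and the ages overlap along the horizontal axis, where young replicate 3 at 954.9 CPM lies beyond aged replicate 3 at 735.7 CPM.

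Of the T cell states, the 5 naive T cell markers were all called lower in aged Tregs (summed 892.8 to 1119 CPM against 1848 to 2028 CPM). Of 6 effector memory markers, 3 were called higher (652.7 to 748.9 CPM against 488 to 604.2 CPM). Beside these counts and those below, 6.94% of all genes tested were called lower and 9.80% higher. Single genes whose values did not overlap between ages made up 29.9%. Of 7 Treg markers 1, Lrrc32, was called lower and none higher. None of these genes was at 0 in a library. The naive and effector memory sums did not overlap between ages, as in Socs3 and Socs7. The same held for 4 NK cell markers (15.4 to 24.6 CPM in aged, 25.8 to 35.9 CPM in young libraries) and 5 platelet markers (20.2 to 39.5 and 8.2 to 17.3 CPM), and for the mitochondrial share. Of 10 macrophage markers, 3 were called lower (Csf1r, Adgre1 and Vcam1) and none higher, with summed levels that overlapped (426.6 to 585.0 and 542.6 to 633.7 CPM). Of 6 dendritic cell markers, 2 were called lower and 1 higher (summed 41.1 to 62.9 and 55.8 to 74.8 CPM). The part of these cell types and of the mitochondrial share in either result was not tested.

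Socs7 encodes the member with the longest N terminal part, known to bind the adaptor Nck and insulin receptor substrates. The gene (ENSMUSG00000038485) lies on chromosome 11 of GRCm38 from 97362551 to 97398542, on the plus strand. Aged replicates 1, 2 and 3 held 30.5, 30.5 and 34.2 CPM, and young replicates 1 to 4 held 47.6, 41.3, 45.2 and 38.1 CPM. Each aged library therefore held less than each young one, by a margin that is narrow between aged replicate 3 and young replicate 4. The log2 fold change was -0.44 with a standard error of 0.11 (edgeR, adjusted p = 0.0293), with a 95% confidence interval of 0.620 to 0.877 of the young level. The call was lost without aged replicate 2 (-0.41, adjusted p = 0.0731) or aged replicate 3 (-0.49, 0.052). It was also lost without young replicate 1 (-0.38, 0.0781) or young replicate 3 (-0.42, 0.0829). With the trends of GC content and gene length removed it was lost (-0.32, 0.0844). The same held with the replicate number as a block (-0.49, 0.0999) and with both (-0.39, 0.145). Replicate numbers did not pair the libraries, and the block leaves fewer degrees of freedom. The direction of Socs7 was the same in all 20 alternatives.

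Values of the ages did not overlap for 2 of the 8 members, Socs3 and Socs7, which is 25.0% beside 29.9% of all genes tested. An unadjusted p under 0.05 was reached by 3 members, Socs3, Socs7 and Socs5, beside 32.7% of all genes.

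Cish, whose product CIS is the classical feedback inhibitor induced by Stat5 downstream of IL-2, did not pass the test. The gene lies on chromosome 9 of GRCm38 from 107296026 to 107302784 (ENSMUSG00000032578). Its level was 111.8, 94.6 and 95.1 CPM in aged and 92.8, 99.6, 87.3 and 87.4 CPM in young libraries. The ages overlapped, and the log2 fold change of 0.13 (edgeR, adjusted p = 0.401, with a standard error of 0.0986) left room for a change from 0.937 to 1.28 of the young level (95% confidence interval). Of its exon length, 11.5% overlaps exons of 2 other annotated genes, Gm17040 and Gm17041, where reads counted without strand cannot be assigned. Cish was called in none of the 20 alternatives.

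Socs1 and Socs2 did not pass the test either, and their fold changes had opposite signs. Socs1 (chromosome 16, 10782240 to 10785536), which blocks Jaks directly and is known as a brake on interferon gamma signalling, was at 16.4, 20.3 and 20.2 CPM in aged and 14.3, 16.5, 15.2 and 17.5 CPM in young libraries. Aged replicates 2 and 3 lay above the young range and aged replicate 1 within it. The log2 fold change was 0.25 (edgeR, adjusted p = 0.221, with a standard error of 0.132), an interval of 0.968 to 1.47 of the young level. Socs2 (chromosome 10, 95385362 to 95417180), best known as a regulator of growth hormone receptor signalling, was at 43.8, 34.9 and 36.3 CPM in aged and 48.3, 56.2, 41.9 and 36.6 CPM in young libraries. The ages overlapped, and the log2 fold change of -0.25 (edgeR, adjusted p = 0.308, with a standard error of 0.159) had an interval of 0.652 to 1.08 of the young level.

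Of the 6 members that were not called, Socs5 had the lowest adjusted p. Socs5 (chromosome 17, 87107679 to 87137839), known to bind the IL-4 receptor and to promote loss of the EGF receptor, was at 25.3, 42.4 and 38.9 CPM in aged and 28.9, 24.3, 27 and 25 CPM in young libraries. Aged replicates 2 and 3 lay above all young libraries, and aged replicate 1 lay within their range. With all libraries its log2 fold change was 0.43 (edgeR, adjusted p = 0.126, with a standard error of 0.175), and leaving out aged replicate 1 gave 0.62 (adjusted p = 0.00973), the 1 alternative of 20 in which Socs5 was called. Without aged replicate 1 the number of members called was therefore 3.

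Socs4, the closest relative of Socs5 (chromosome 14, 47276931 to 47296102), was at 59.3, 60.3 and 79.7 CPM in aged and 61.8, 57.7, 62.7 and 52.4 CPM in young libraries. Only aged replicate 3 lay outside the young range. The log2 fold change was 0.18 (edgeR, adjusted p = 0.361, with a standard error of 0.126), with an interval of 0.928 to 1.38 of the young level. Socs6 (chromosome 18, 88665224 to 88927481), known to bind the receptor KIT, was at 19.5, 17.8 and 21.9 CPM in aged and 17, 17.7, 20.8 and 20.1 CPM in young libraries. Here the ages covered nearly the same range, with a log2 fold change of 0.06 (edgeR, adjusted p = 0.782, with a standard error of 0.129) and an interval of 0.851 to 1.28 of the young level. The sign of this value changed to -0.0054 with library size scaling and to -0.02 without aged replicate 3.

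**Figure D3:**
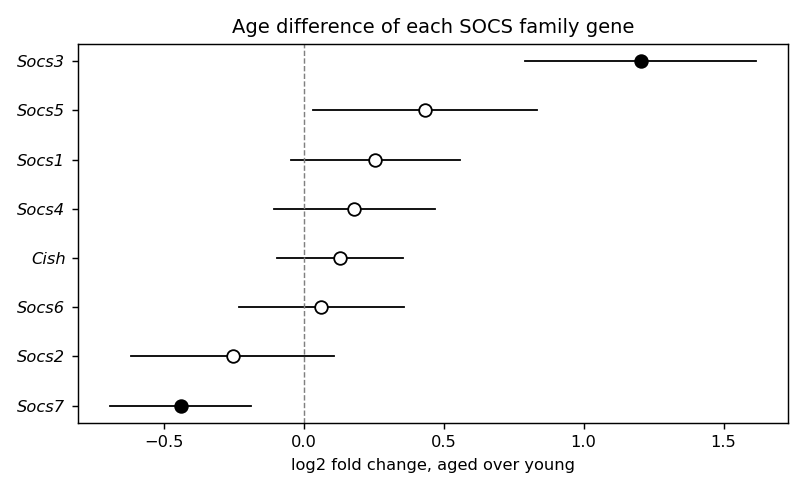
Log2 fold change of each member, aged over young (points), with its 95% confidence interval (lines). Filled points are called with an adjusted p under 0.05. Socs3 at 1.20 and Socs7 at -0.44 are filled, and of the open points the interval of Socs5 alone does not reach 0.

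The members also differed in how much they varied between libraries of the same age. Over the 4 young libraries the coefficient of variation of CPM ran from 6.35% for Cish to 18.5% for Socs2. Over the 3 aged libraries it ran from 6.65% for Socs7 to 25.5% for Socs3 and 25.4% for Socs5. In Socs3 the spread came from the high value of aged replicate 1, and in Socs5 from the low value of the same library.

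For comparison between genes, CPM were divided by the length of the merged exons in kilobases. On this scale Socs3 was the most abundant member in both ages, at 58.9 ± 15.0 (SD, n = 3) in aged and 25.6 ± 3.73 (SD, n = 4) CPM per kilobase in young Tregs. Cish followed at 15.7 ± 1.53 (SD, n = 3) and 14.3 ± 0.908 (SD, n = 4), then Socs4 at 9.66 ± 1.67 (SD, n = 3) and 8.53 ± 0.684 (SD, n = 4). The ranges of these 3 genes did not overlap with that of the next in either age. Socs1, Socs2, Socs5 and Socs7 lay between 4.02 and 6.53 CPM per kilobase in their age means, and the ranges of neighbours in that order overlapped. Further apart in the order, Socs1 lay wholly above Socs7 and Socs2 in aged Tregs (5.65 to 7.0 against 4.2 to 4.7 and 3.67 to 4.59), and Socs7 above Socs5 in young Tregs (5.25 to 6.56 against 3.79 to 4.51). In young Tregs Socs7 was 4th at 5.93 ± 0.578 (SD, n = 4), whereas in aged Tregs it was 6th at 4.37 ± 0.29 (SD, n = 3). Socs6 was lowest in both ages, at 1.74 ± 0.18 (SD, n = 3) and 1.67 ± 0.162 (SD, n = 4), below the range of its neighbour.

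The length chosen matters for the middle of this order. With the longest annotated transcript in place of the merged exons, Socs3, Cish and Socs6 kept ranks 1, 2 and 8 in both ages. Socs2 moved from 7th to 4th in aged and from 6th to 3rd in young Tregs. Its merged exons of 9531 bases are much longer than its longest transcript of 4242 bases. Socs4 stayed 3rd in aged Tregs, where its range then overlapped with that of Socs2, and was 4th in young Tregs. Socs1 moved from 4th to 6th in aged and from 5th to 7th in young Tregs. Socs7 moved from 6th to 7th in aged and from 4th to 5th in young Tregs, and Socs5 from 7th to 6th in young Tregs only.

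Summed over the 8 members, the length-scaled level was 122.3, 96.3 and 100.5 CPM per kilobase in aged and 74.1, 74.1, 64.7 and 68.6 in young libraries. Without Socs3 the sum was 46.2, 46.5 and 49.9 in aged and 46.0, 46.5, 44.6 and 42.0 in young libraries. The separation of the ages in the summed level therefore came from Socs3, and the other 7 members together overlapped between ages. Socs3 made up 62.3%, 51.7% and 50.4% of the family in aged and 37.9%, 37.2%, 31.0% and 38.7% in young libraries. The share of Cish was 14.2% to 15.3% in aged and 19.5% to 21.0% in young libraries, a lower share at a level that did not pass the test.

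**Figure D4:**
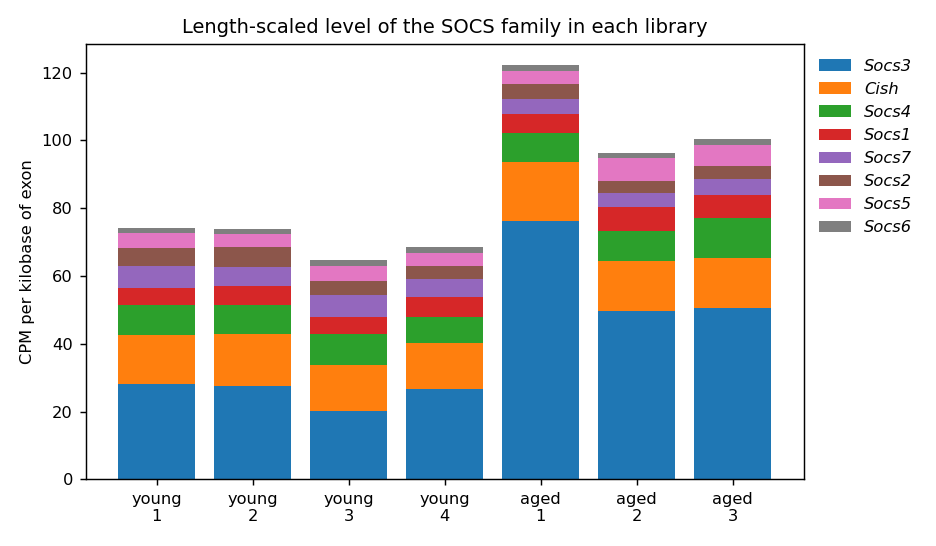
Length-scaled level of the 8 members (CPM per kilobase of merged exon, stacked bars from 0) in each library. The Socs3 block at the base is 49.8 to 76.2 in aged and 20.1 to 28.1 in young libraries, and the blocks above it reach a similar summed height in all 7.

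RefSeq start sites on GRCm38.p6 were matched for 4 of the 8 members, Cish, Socs1, Socs3 and Socs4, and are shown because the SOCS genes best known as feedback inhibitors are targets of Stats and interferon factors. The window of 250 bases before to 50 bases after each start was searched on both strands for the Stat motif TTCNNNGAA, which reads the same on both strands, and for an interferon motif made of GAAA, any 2 bases and GAAA again. Socs3 held 1 Stat motif, Cish 2, and Socs1 and Socs4 none. At least 1 Stat motif was found in 8.30% of 32851 promoter windows of this length, and 2 or more in 0.457%. Socs1 alone held the interferon motif, in 2 overlapping copies, against 3.44% of all windows with at least 1 and 0.225% with 2 or more. Capitals mark the motifs. For Socs3 and Socs1 the 250 bases before the start are given (chr11:117969367-117969616 and chr16:10785537-10785786, both minus strand), and for Cish 30 bases around its start (chr9:107296654-107296683, plus strand).
Socs3: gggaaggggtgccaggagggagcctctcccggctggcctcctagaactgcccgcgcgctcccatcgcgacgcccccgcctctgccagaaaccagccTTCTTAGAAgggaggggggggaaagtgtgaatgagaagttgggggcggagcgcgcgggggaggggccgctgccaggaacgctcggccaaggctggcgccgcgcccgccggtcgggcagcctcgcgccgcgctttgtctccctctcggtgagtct
Socs1: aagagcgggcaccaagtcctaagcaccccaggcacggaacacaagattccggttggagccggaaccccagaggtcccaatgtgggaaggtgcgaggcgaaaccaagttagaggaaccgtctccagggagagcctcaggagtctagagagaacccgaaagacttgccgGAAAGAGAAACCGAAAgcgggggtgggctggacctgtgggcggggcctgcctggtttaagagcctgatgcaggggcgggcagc
Cish: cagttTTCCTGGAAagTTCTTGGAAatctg
The Stat motif of Socs3 begins 154 bases before the start, those of Cish at bases 1 and 12 of the annotated transcript, and the interferon motifs of Socs1 83 and 77 bases before the start. For Socs3 and Cish the RefSeq start and the whole window lie inside the span that GENCODE gives the gene. Windows at the GENCODE ends of these genes were not searched. The motifs are matches of letters, and binding was not measured here. Socs3 and Cish both hold Stat motifs, and their fold changes were 2.30 and 1.09.

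Upstream of the family, Stat3 and Jak3 rose with age, whereas Stat5a and Stat5b did not pass the test. Stat3, which carries signals of IL-6 and IL-21 and is known to induce Socs3, was at 321.2, 279.3 and 326.8 CPM in aged and 201.5 to 237.4 CPM in young libraries. Its log2 fold change of 0.49 (edgeR, adjusted p = 0.0169) lost its call without aged replicate 3, young replicate 3 or young replicate 4. The Stat3 call was also lost with library size scaling (0.43, adjusted p = 0.0808) and with the replicate number as a block (0.48, 0.147). Replicate numbers did not pair the libraries, and that block leaves fewer degrees of freedom. With that block and the trends of GC content and length removed it was lost as well (0.62, 0.112). Jak3, the kinase of the common gamma chain, had a log2 fold change of 0.48 (adjusted p = 0.0164). The Jak3 call was lost without young replicate 3 and with library size scaling (0.42, adjusted p = 0.0622). It was lost too with the block (0.51, 0.0972) and with the block and trends removed (0.58, 0.0851). Stat5a and Stat5b, which induce Cish, had values of -0.11 (adjusted p = 0.369) and -0.19 (adjusted p = 0.352).

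Of 22 cytokine receptor chains, 9 were called (40.9%), 6 higher and 3 lower, beside 16.7% of all genes called, 9.80% higher and 6.94% lower. This list was chosen with earlier results of these data known, so its share is not a test of the list. Il6ra, the ligand-binding chain for IL-6, fell to 114.3, 112.6 and 90.3 CPM in aged from 198.3 to 236.1 CPM in young libraries, a log2 fold change of -1.04 (edgeR, adjusted p = 0.00158, with a standard error of 0.121). Il6st, which encodes gp130, the chain that Socs3 binds, had a log2 fold change of 0.26 (adjusted p = 0.345). Ifngr2, the signalling chain for interferon gamma, fell to 25.7, 27.6 and 27.8 CPM from 46 to 49.1 CPM, a value of -0.83 (adjusted p = 0.00117). Both falls were called in all 7 fits without a library. Ifnar1 fell by 0.41 on the log2 scale (adjusted p = 0.0402), a call kept in 1 of those 7 fits, without aged replicate 1. Il13ra1, Il15ra and Il12rb1 rose, with log2 fold changes of 1.10 (adjusted p = 0.00678), 1.01 (0.00218) and 0.62 (0.0083), each called in all 7, and Il9r by 0.53 (0.0436), called only without aged replicate 3. The number of chains called was 5 to 10 in these fits, fewest without aged replicate 2, young replicate 1 or young replicate 3.

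Of 20 cytokines listed, 10 passed the filter on low counts. Of these 10, 3 rose and 1 fell. Il21 and Il7, among those that rose, had fewer than 10 reads in every young library and passed the filter through their aged counts. With a minimum of 10 counts in each library they were not tested and 2 cytokines were called, so the share of the list is not read against that of all genes. Il21, which signals through Stat3, was read 103, 61 and 144 times in aged and 4, 9, 7 and 9 times in young libraries (edgeR, adjusted p = 0.000529). Il7 was read 10, 21 and 11 times in aged and 2, 3, 2 and 2 times in young libraries (adjusted p = 0.00624). At such young counts the size of either change is uncertain, and none is given. Osm, which acts through gp130 and is itself a Stat5 target, was at 39.6, 25.1 and 28 CPM in aged and 16.5 to 19.9 CPM in young libraries (log2 fold change 0.77, adjusted p = 0.0189, lost without young replicate 3). Il12a fell by 1.25 on the log2 scale (adjusted p = 0.0259), a call lost without aged replicate 2 or young replicates 1, 3 or 4. Il6 was among the cytokines below the filter.

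**Figure D5:**
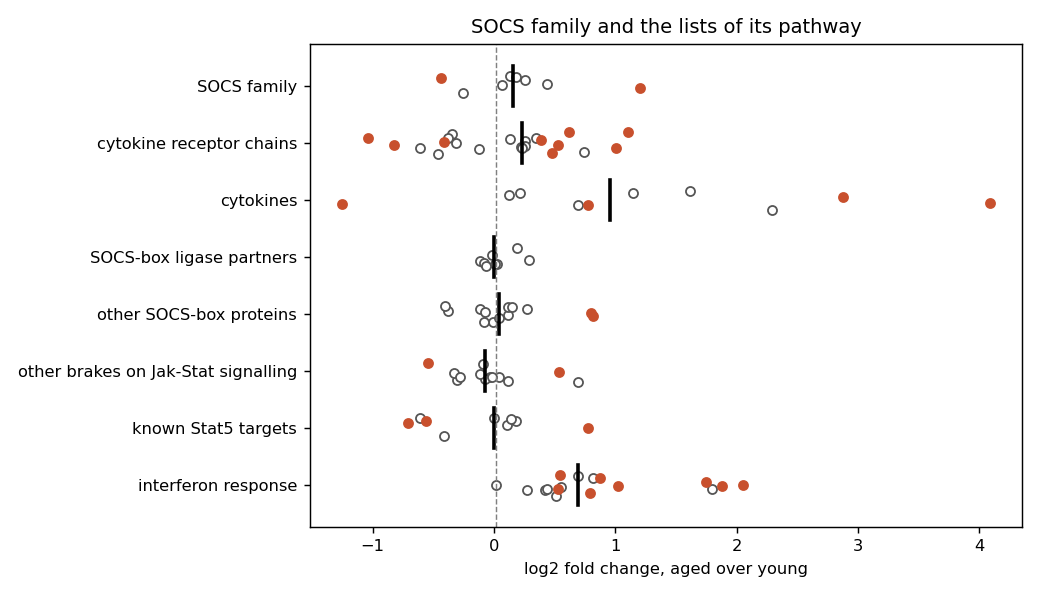
Log2 fold change, aged over young, of every tested gene in the SOCS family and in 7 of the 8 lists of its pathway, the list of Jak kinases and Stat factors not being shown. Filled points are called with an adjusted p under 0.05, the black bars are list medians and the dashed line is the median of all genes at 0.0192. The cytokine points farthest to the right are Il21 and Il7, with fewer than 10 reads in each young library and changes of uncertain size. Both count towards the cytokine median. The ligase partners hold no filled point, and the interferon response genes lie around a median of 0.689.

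The ubiquitin ligase that SOCS proteins recruit showed no call. None of 8 genes of the ligase bound by the SOCS box (Elob, Eloc, Cul5, Rnf7, Cul2, Rbx1, Arih2 and Ube2f) was called by edgeR, none had an unadjusted p under 0.05, and none was called by DESeq2 or limma. Their log2 fold changes ran from -0.11 (Cul5) to 0.29 (Eloc). Of 26 genes of other SOCS-box proteins 13 were tested, and 2 rose, Asb8 with a log2 fold change of 0.82 (adjusted p = 0.00869) and Spsb1, which targets inducible nitric oxide synthase for degradation, with 0.80 (adjusted p = 0.0158). Both were called in all 7 fits without a library. Their 15.4% is close to the 16.7% of all genes.

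Of 13 other brakes on Jak-Stat signalling, 1 rose and 1 fell, also 15.4%. Pias3, an inhibitor of Stat3, was at 28.2, 41.8 and 32.6 CPM in aged and 21.9 to 25.0 CPM in young libraries (log2 fold change 0.54, adjusted p = 0.0373, edgeR). Ptpn6, the phosphatase SHP-1, was at 172.2, 230.3 and 220.3 CPM in aged and 270.1 to 358.9 CPM in young libraries (-0.55, adjusted p = 0.0373). These groups did not overlap, but each call was kept in only 1 of the 7 fits without a library, without aged replicate 1 for Pias3 and without aged replicate 2 for Ptpn6.

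Known Stat5 targets other than SOCS genes did not move together. Of 9 tested, 3 were called (33.3%, beside 16.7% of all genes): Osm rose and Myc and Bcl2 fell, with log2 fold changes of -0.71 (adjusted p = 0.0189) and -0.56 (adjusted p = 0.015) for the latter pair. The Bcl2 call was lost without aged replicate 3, and the Myc call without aged replicates 2 or 3 or young replicates 1 or 4. The list median was -0.00227. The count of 3 was 1 without aged replicate 3 and 5 without aged replicate 1. Il2ra, the IL-2 receptor chain that defines the isolated cells and a target of Stat5, had a log2 fold change of -0.61 (adjusted p = 0.0588). In contrast, 8 of 17 interferon response genes rose and none fell (47.1%, median log2 fold change 0.689), beside 16.7% of all genes called and 9.80% called higher. Both lists were chosen with earlier results of these data known, so neither share is a test of its list. Iigp1 had a log2 fold change of 1.75 (adjusted p = 0.000235), Oas1a of 1.88 (0.00241) and Gbp4 of 1.03 (0.00317), each called in all 7 fits without a library, and Mx1 of 2.05 (0.0289), a call lost whichever young library was left out. Aged replicate 1 held 86.8 CPM of Mx1 and the other aged libraries 18.6 and 28.4 CPM, and without aged replicate 1 its log2 fold change was 1.12 (adjusted p = 0.0464). The number called was 6 to 9 in those fits. Socs1, the brake on interferon gamma signalling, did not pass the test beside these genes.

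The genes whose levels over the 7 libraries were most like those of the called members were sought among 11948 genes, by the root mean square difference of log2 CPM centred on each gene's mean. For Socs3 they were Gbp6 (0.137), an interferon-induced guanylate-binding protein gene, Gm14085 (0.171) and Zscan18 (0.174). Gbp6 was at 55.7, 30.5 and 36.2 CPM in aged and 20.8, 21.3, 17.2 and 20.4 CPM in young libraries, with its highest value in aged replicate 1 and its lowest in young replicate 3, as in Socs3. For Socs7 they were B230219D22Rik (0.0589), Galnt4 (0.062) and Tgfbr1 (0.0685). Tgfbr1, a receptor of TGF-beta, was at 57.9, 58.1 and 57.6 CPM in aged and 81.4, 71.7, 80.8 and 64.8 CPM in young libraries. The likeness is a description over 7 libraries that differ in age.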

How the data were processed

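The authors deposited whole-number read counts per Ensembl gene for each of the 7 libraries, in the layout of HTSeq-count (union mode, without strand). Reads on no gene or on several (13.1% to 20.9%) were left out. The build is mm10 by the submitters' processing notes. The aligner and annotation are not given in the sources used here. Libraries were made with SMART-Seq v4, which carries no molecular identifiers. The authors also deposited normalized counts (a signal, each count over 1 size factor per library, from which all values came out whole within 0.05 reads and equal to the count files), used for gene symbols and in 2 alternatives, and their own fold changes and p-values, which were not used. The recovered reads gave 2327 called genes in edgeR, as the counts did.

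The ages were tested in R 4.3.3 by edgeR 4.0.16 (filterByExpr, TMM, quasi-likelihood test, no covariate, Benjamini-Hochberg over 13904 genes). The paper names limma for its own test, which is among the alternatives here because the deposited values are counts. Standard errors were taken as the size of the log2 fold change divided by the square root of F. CPM are on the TMM scale, log2 CPM with a prior count of 2. Positions and lengths are from GENCODE M21 (GRCm38), promoter sequences from RefSeq (GRCm38.p6). Exact permutation tests used SciPy 1.17.1. The test was checked on simulated counts. Alternatives were DESeq2 1.42.0, limma 3.58.1 (voom, and log2 of the normalized counts plus 1), RLE or library size scaling, no filter or a minimum of 10 counts per library, leaving out 444 genes of haemoglobin, immunoglobulin and mitochondrial origin, GC content and length trends removed (splines of 4 degrees of freedom on each), the replicate number as a block, the block with those trends removed, thinning to the smallest total, and each library left out in turn. The recovered reads were added after seeing the data. The members and gene lists were chosen with earlier results of these data known. Named genes are the members, Foxp3, Cd4 and Il2ra, up to 4 called genes a direction in each of 8 lists, and the 3 genes most like each called member (mean log2 CPM of 1 or more). Other genes were named after their values were seen. The result of 1 listed gene is not reported here. Libraries of an age differed by more than sampling noise (chi-square per degree of freedom 8.65 to 182), and p-values measure the spread between these libraries only.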

Additional observations from a re-analysis of the deposited data

Results flagged for a closer look

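In 2 of 41 genes checked, a young library stood apart from the other 3 by Dixon's test at the 95% level, which flags about 1 in 20 groups by chance. The threshold used was that for groups of 4 libraries, and no flag is given for the 3 aged libraries. Socs3 was at 58.0 CPM in young replicate 3 and at 76.8 to 81.3 CPM in the other young libraries. Without that library its log2 fold change was 1.10 (edgeR, adjusted p = 0.0134). Ifnar1 was at 179.9 CPM in young replicate 1 and at 164.2 to 166.4 CPM in the other young libraries.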

How the results depend on the processing

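Over 20 alternatives Cish, Socs1, Socs2 and Socs4 kept their direction and their side of the threshold in each. Socs3 kept its call in 19. With the replicate number as a block and the GC content and length trends removed, it had a log2 fold change of 1.18 (adjusted p = 0.0552). Socs7 kept its call in 13, and lost it with the trends removed (-0.32), with the replicate block (-0.49, adjusted p = 0.0999) and with both (-0.39, 0.145). Without 1 library, Cish ranged from 0.04 to 0.17, Socs1 from 0.20 to 0.35, Socs2 from -0.36 to -0.14 and Socs4 from 0.03 (without aged replicate 3) to 0.25, and Socs3 ranged from 0.97 to 1.31, Socs5 from 0.29 to 0.62, Socs6 from -0.02 to 0.13 and Socs7 from -0.49 to -0.38. With library size scaling alone Socs6 was at -0.0054, and without aged replicate 3 at -0.0171. The members called numbered 1 with the trends removed, 1 with the replicate block, 0 with both (edgeR, where 2 of the 8 had an unadjusted p under 0.05) and 1 to 3 without a library. Over all genes, the calls fell from 2327 to 292 with the block and to 281 with both, and were 1237 without young replicate 4 to 3058 without aged replicate 1. The replicate numbers did not pair the libraries, since same-numbered ones had deviations correlated at -0.0915, -0.292 and -0.138, none being best with its own number. The block also adds terms to the fit, which leaves fewer degrees of freedom for the test. No aged library shares the number of young replicate 4. The part of this in the losses was not tested. With the block, the number of calls went from 8 to 1 for interferon response genes, from 9 to 2 for receptor chains and from 4 to 1 for cytokines, and to 0 for Stat5 targets, other brakes and other SOCS-box proteins. Stat3 and Jak3 also lost their calls with the block (0.48, adjusted p = 0.147, and 0.51, 0.0972) and with both (0.62, 0.112, and 0.58, 0.0851). With all libraries thinned to the smallest total, 2 members were called, Socs3 at 1.20 and Socs7 at -0.45.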

Other observations

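Within a library, the ratio of 2 members does not depend on scaling. On the scale per kilobase, Socs7 over Socs4 was 0.487, 0.479 and 0.406 in aged and 0.677 to 0.73 in young libraries. Cish over Socs2 was 3.79, 4.02 and 3.89 in aged and 2.63 to 3.55 in young libraries, although neither gene was called. The ratio of Socs3 to Cish was 4.37, 3.38 and 3.42 in aged and 1.47 to 1.95 in young libraries. These ratios were chosen after their values were seen, and no test was run on them. Of all 28 pairs of members, 13 (46.4%) had ratios that did not overlap between ages. No such share was taken for pairs of other genes, so whether 13 is many is not known. Of these, 12 were among the 13 pairs that hold Socs3 or Socs7, and 1, Cish over Socs2, was among the 15 pairs without them. Socs3 and Socs7 did not overlap between ages by themselves, so the count of 12 restates that and is no separate result.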
